A study of Homo sapiens with 4 samples.

Results

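The double-strand break response genes described here are 41 genes whose products sense, signal or repair breaks that cut both strands of DNA. They were taken by gene symbol from a list of sensors and mediators, end joining factors, homologous recombination factors and checkpoint kinases, and all 41 were found among the 36601 genes in the deposited matrices. The rule that picks them uses symbols and no measured value, though the list was drawn up with earlier results of these data known. For description they were placed in 7 roles, with 4 in the damage kinase group, 7 in end binding and ligation, 6 chromatin sensors and mediators, 4 in end resection, 10 in homologous recombination, 5 helicases and Fanconi anaemia genes and 5 checkpoint genes.

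A break is sensed at its ends by the Ku heterodimer or by the MRE11, RAD50 and NBN complex, which bring in the kinases DNA-PKcs (PRKDC) and ATM, while ATR responds to single-stranded DNA. These kinases phosphorylate the histone variant H2AX, on which mediator proteins assemble, and the break is then either rejoined by end joining at any time of the cell cycle or, after the end is cut back, copied from the sister chromatid by homologous recombination in S and G2. Much of this response acts through phosphorylation and ubiquitylation of proteins that are already present, which mRNA counts do not measure.

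The study measured the BEAS-2B line, bronchial epithelial cells of human origin that were immortalised with a viral T antigen, by droplet single-cell RNA sequencing. Cells in culture flasks received 10 mGy, 100 mGy or 1 Gy of gamma rays from a Cs-137 source or no radiation (control), and the irradiated cells were processed 30 min later. Each of the 4 conditions has 1 library, so there is no replicate, no test between doses was made, and dose and library cannot be told apart. All 4 libraries share the same cell line, and the 3 irradiated libraries share the control against which they are set.

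The authors deposited the number of unique molecular identifiers (UMIs), a count of captured mRNA molecules, for each gene and cell barcode. The libraries held 11111 to 21514 barcodes and 211752280 to 285806026 UMIs, with a median of 12417 to 19771 UMIs per barcode. Barcodes whose UMI count times 3 was under the median of their library (low-UMI barcodes) were 19.6% of the barcodes in the control library and 41.4%, 27.4% and 25.4% in the libraries of 10 mGy, 100 mGy and 1 Gy. Ribosomal protein genes took 13.9% of the UMIs in the control and nearly the same share at 1 Gy, but 21.8% at 100 mGy and nearly as much at 10 mGy. Any pair of libraries shared 76 to 134 barcode sequences. Of the epithelial markers, KRT8, KRT18 and KRT7 were present at 219 to 645 UMIs per 1000000 (CPM), KRT19 and EPCAM at 0.90 to 2.41 CPM, and KRT5 and CDH1 at 0.05 CPM or less. Of the mesenchymal markers, VIM stood at 2344 CPM or more. From the control to 1 Gy CDH2 had 183, 131, 150 and 195 CPM and FN1 had 1546, 623, 640 and 1466 CPM. The immune markers PTPRC and CD3E stood at 0.06 CPM or less and CD68 at 7.02 to 10.8 CPM, and the endothelial markers PECAM1, CDH5 and VWF at 0.49 CPM or less.

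All 41 genes had a mean of at least 1 CPM over the 4 libraries, as had 12879 of the 36601 genes, which serve as the background. The level of a gene is its UMIs over all barcodes of a library per 1000000 UMIs, and a ratio is the level at a dose over that in the control. The intervals given are exact, at 95%, and take in the error of counting alone. A ratio over 1.2 or under its inverse, the study's threshold for fold change, was counted as higher or lower.

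At both low doses most of the break response genes were lower than in the control, and at 1 Gy nearly all were close to it. At 10 mGy 33 of 41 genes were lower and 1 was higher, where 53.4% of the 12879 genes were lower and 15.2% were higher. At 100 mGy 30 were lower and 1 was higher, against 60.9% and 12.6% of all genes. At 1 Gy 1 was lower and 0 were higher, against 1.42% and 3.14% of all genes. The downward shift at the low doses was thus general, and the share of lower break response genes stood above that of all genes at 10 mGy (33 of 41) and at 100 mGy (30 of 41).

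The median gene of the 41 had a log2 ratio of -0.47, -0.50 and -0.01 at the rising doses, and the median of all 12879 genes had -0.31, -0.41 and 0.02. Ratios under 1 were found for 37 of the 41 genes at 10 mGy (72.2% of all genes), for 38 at 100 mGy (76.4%) and for 25 at 1 Gy (41.9%). Measured against these medians, 31 of 41 break response genes lay below the median gene at 10 mGy, 28 at 100 mGy and 30 at 1 Gy. When libraries were scaled by the median of gene ratios, which removes the general shift, 4 genes were higher and 16 were lower at 10 mGy, and 6 were higher and 15 lower at 100 mGy. Under that scaling 30.2% of all genes were higher and 28.4% lower at 10 mGy, and 29.9% and 31.2% at 100 mGy, so that the count of lower genes at 100 mGy was near that background. The sign of the difference turned under that scaling in 5 genes at 10 mGy (BARD1, NHEJ1, RBBP8, RNF8 and XRCC4) and in 10 at 100 mGy (ATRIP, BARD1, CHEK1, CHEK2, FANCD2, NHEJ1, PRKDC, RNF8, XRCC5 and XRCC6), all from below to above the control. At 1 Gy it turned from slightly above to slightly below in 7 (ATRIP, FANCA, FANCI, MDC1, MRE11, RNF168 and WEE1). Together the 41 genes summed to 3851 CPM in the control and to 2867, 2904 and 3690 CPM at the rising doses. In low-UMI barcodes alone the sums were 3884, 2747, 2907 and 3482 CPM, in the same order. In 36 of the 41 genes both low-dose libraries were below both the control and 1 Gy, and in 2, RAD51C and PAXX, both were above. This order was not counted over all genes, of which 72.2% and 76.4% were under the control at 10 mGy and 100 mGy. It is thus not shown to be particular to these genes.

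**Figure D1:**
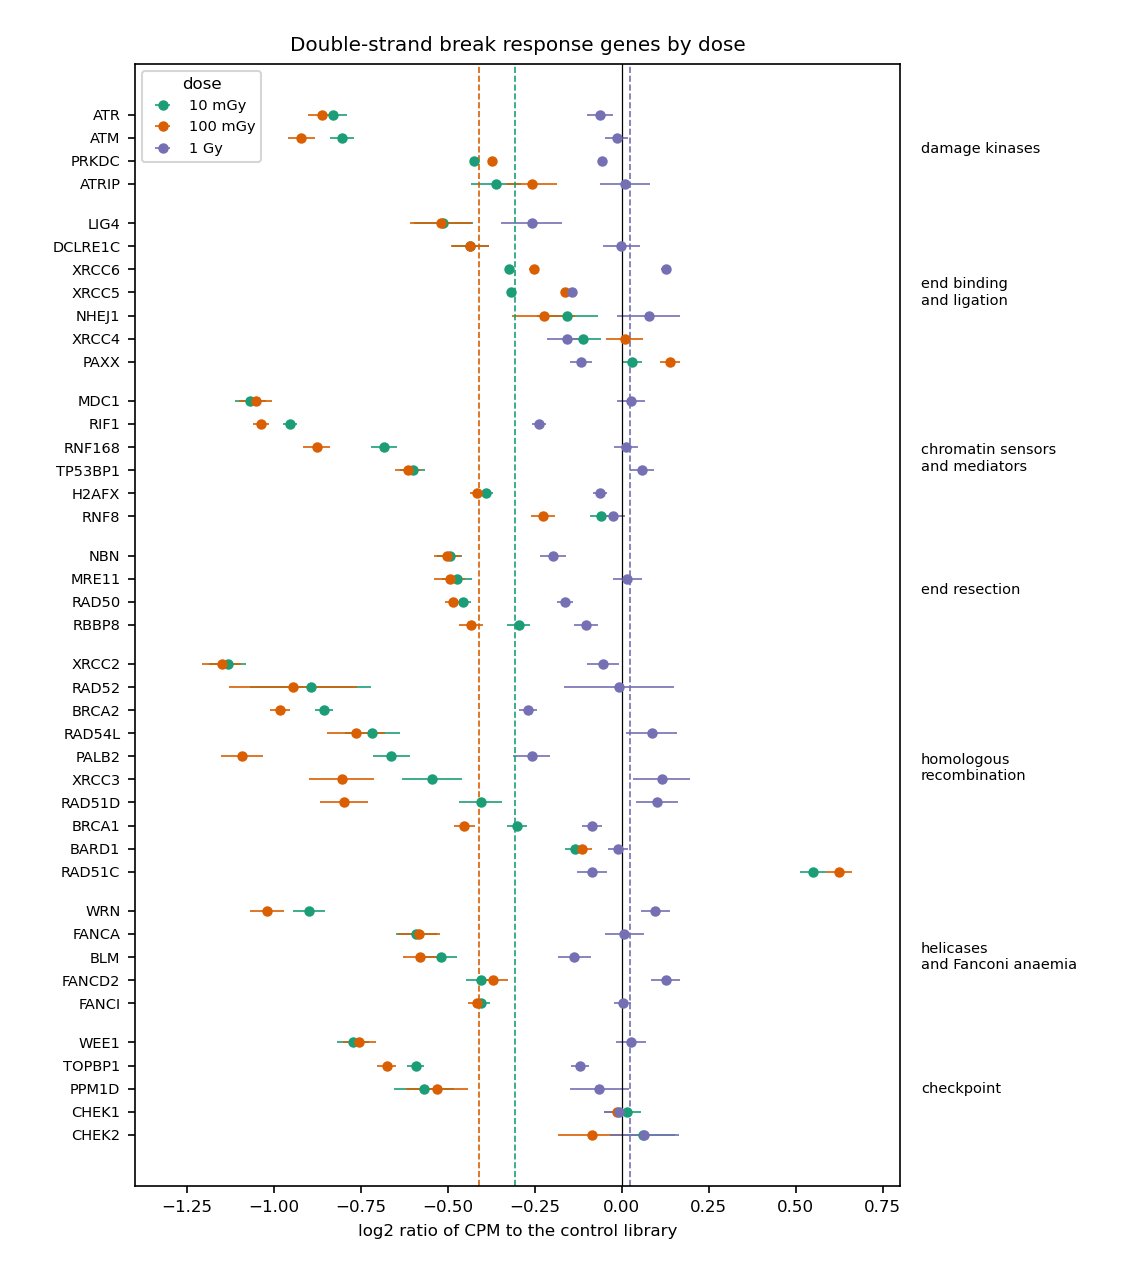
Log2 ratio of each of the 41 genes to the control, grouped by role, with exact 95% counting intervals as lines and 1 colour per dose. Dashed lines mark the median of all 12879 genes at each dose (-0.31, -0.41 and 0.02). Most points of 10 mGy and 100 mGy lie left of their dashed lines, RAD51C lies far to the right, and the points of 1 Gy lie around 0.

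Among the damage kinases, ATM, the kinase activated at break ends, had 69.6 CPM in the control and 39.9, 36.8 and 69.0 CPM after 10 mGy, 100 mGy and 1 Gy. The ATM ratios at the low doses were 0.572 (0.558 to 0.586) and 0.528 (0.514 to 0.542), while at 1 Gy the interval of 0.968 to 1.01 included 1. The low-dose libraries thus stood apart from the control and 1 Gy, which did not differ beyond counting error. ATR, which answers to single-stranded DNA at stalled forks and resected ends, followed the same order with 56.9, 32.0, 31.3 and 54.4 CPM. ATRIP, the partner that recruits ATR, had ratios of 0.778 at 10 mGy and 0.835 at 100 mGy, the latter just inside the threshold and above 1 under median ratio scaling, and its exons overlap those of TREX1 on the same strand, so that reads could be split between them. PRKDC, the kinase subunit that joins Ku in end joining, had 618 CPM in the control and 461, 477 and 594 CPM at the rising doses, and its difference at 100 mGy turned to slightly above 0 under median ratio scaling. All 4 genes of this group were lower at 10 mGy and 3 were at 100 mGy, beside 53.4% and 60.9% of all genes. The group medians were -0.61 and -0.62 on the log2 scale.

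At the low doses the end binding and ligation genes were the group closest to the control, with a median log2 ratio of -0.32 at 10 mGy and -0.23 at 100 mGy, and 4 and 2 of 7 genes lower. Set against the median gene (-0.31 and -0.41), the group was level at 10 mGy and higher at 100 mGy. At 1 Gy its median was -0.12, and only end resection (-0.13) lay farther from the control. XRCC6, the smaller Ku subunit, had 415 CPM in the control and 331, 348 and 453 CPM after 10 mGy, 100 mGy and 1 Gy, and its difference at 100 mGy turned above 0 under median ratio scaling. At 1 Gy its ratio of 1.09 (1.08 to 1.10) was the highest of the 41 genes, and it stayed inside the threshold. XRCC5, the larger Ku subunit, was below the control at every dose, with ratios of 0.802, 0.893 and 0.906, of which that at 100 mGy turned above 1 under median ratio scaling. XRCC4, the scaffold of the ligase, had 25.5, 23.6, 25.6 and 22.8 CPM from the control to 1 Gy. Its ratio at 100 mGy was 1.01 (0.970 to 1.04), so by total UMIs control and 100 mGy did not differ beyond counting error. Under median ratio scaling XRCC4 was counted as higher at 100 mGy, with a log2 ratio of 0.39. LIG4, the ligase itself, moved otherwise, with 10.97 CPM in the control and 7.68, 7.65 and 9.17 CPM after 10 mGy, 100 mGy and 1 Gy. The LIG4 ratio at 1 Gy, 0.835 (0.786 to 0.888), lay just inside the threshold.

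PAXX, a small factor that holds Ku at the ends, was among the few genes that were not below the control at the low doses. It had 79.5 CPM in the control and 81.2, 87.5 and 73.3 CPM after 10 mGy, 100 mGy and 1 Gy. The ratio at 100 mGy was 1.10 (1.08 to 1.12), which is inside the threshold. Under median ratio scaling PAXX was counted as higher at both low doses, with log2 ratios of 0.33 and 0.52. NHEJ1 (XLF), which aligns the ends with XRCC4, had ratios of 0.897, 0.855 and 1.05, the low-dose ones above 1 under median ratio scaling, and DCLRE1C (Artemis), the nuclease that opens hairpins, had 0.740 at both low doses and 0.999 at 1 Gy.

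The chromatin sensors and mediators had medians of -0.64 and -0.75 at 10 mGy and 100 mGy. At each dose 5 of 6 were lower, beside 53.4% and 60.9% of all genes. MDC1, the scaffold that binds phosphorylated H2AX, had 46.8 CPM in the control and 22.3, 22.5 and 47.6 CPM after 10 mGy, 100 mGy and 1 Gy. The MDC1 ratios at the low doses were 0.477 (0.462 to 0.492) and 0.482 (0.466 to 0.498), and the interval at 1 Gy included 1. RIF1, the effector that works with 53BP1 to protect ends from resection, had 210 CPM in the control and 108, 102 and 178 CPM after 10 mGy, 100 mGy and 1 Gy. RIF1 was therefore below the control in all 3 irradiated libraries, with a ratio of 0.847 (0.836 to 0.859) at 1 Gy that stayed inside the threshold. The ubiquitin ligases differed from each other, since RNF168 had ratios of 0.622 and 0.544 at the low doses and RNF8, which acts before it, had 0.960 and 0.855, both above 1 under median ratio scaling. TP53BP1 (53BP1) had ratios of 0.659 and 0.653. H2AFX, which encodes H2AX, had 203 CPM in the control and 155, 152 and 194 CPM at 10 mGy, 100 mGy and 1 Gy.

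In end resection all 4 genes were lower at both low doses, beside 53.4% and 60.9% of all genes, with medians of -0.47 and -0.49. Under median ratio scaling all 4 stayed inside the threshold at both doses. Their log2 ratios then ran from -0.19 to 0.01 at 10 mGy and from -0.12 to -0.05 at 100 mGy. MRE11, the nuclease of the end-binding complex, had 42.8 CPM in the control and 30.8, 30.4 and 43.3 CPM after 10 mGy, 100 mGy and 1 Gy. The other subunits had near ratios at the low doses, 0.729 and 0.714 for RAD50 and 0.710 and 0.706 for NBN, but at 1 Gy RAD50 (0.893) and NBN (0.872) were below the control where MRE11 (1.01) was not. RBBP8 (CtIP), the cofactor that starts resection, had 66.1, 53.9, 49.0 and 61.6 CPM from the control to 1 Gy, and under median ratio scaling its difference at 10 mGy turned to slightly above 0.

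At both low doses homologous recombination held both the lowest and the highest ratios. XRCC2, which acts in strand exchange, had 35.9 CPM in the control and 16.3, 16.2 and 34.5 CPM after 10 mGy, 100 mGy and 1 Gy. Its ratios of 0.456 (0.439 to 0.473) and 0.451 (0.433 to 0.468) were the lowest of the 41 at both doses, at percentiles 3.4 and 6.3 of the 12879 genes. BRCA2, a tumour suppressor required for this repair, had 133 CPM in the control and 73.2, 67.1 and 110 CPM after 10 mGy, 100 mGy and 1 Gy. BRCA2 was the gene counted as lower at 1 Gy, with a ratio of 0.829 (0.815 to 0.844), at percentile 1.3. PALB2, the bridge between BRCA1 and BRCA2, had 29.2, 18.4, 13.7 and 24.4 CPM, and at 100 mGy it was 0.743 (0.711 to 0.776) of its level at 10 mGy, the largest step between the low doses. BRCA1 (ratios 0.812 and 0.730) and its partner BARD1 (0.910 and 0.924, both above 1 under median ratio scaling) lay closer to the control, and BRCA1 exons overlap AC060780.1 on the same strand.

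RAD51C, which forms complexes with XRCC2, XRCC3 and RAD51D, went the other way. It had 42.2 CPM in the control and 61.9, 65.1 and 39.8 CPM after 10 mGy, 100 mGy and 1 Gy. The low-dose ratios were 1.46 (1.43 to 1.502) and 1.54 (1.501 to 1.58), at percentiles 94.0 and 96.2 of all genes, while at 1 Gy it was 0.943 (0.915 to 0.972). Both low-dose libraries were thus above the control and 1 Gy, and RAD51C was the gene counted as higher at each low dose. No exon of another gene overlaps it in the annotation used. Its partners RAD51D and XRCC3 were lower at the low doses, with 20.4, 15.4, 11.7 and 21.9 CPM for RAD51D and 10.9, 7.45, 6.23 and 11.8 CPM for XRCC3 from the control to 1 Gy, and both had 1 Gy ratios above 1 (1.07 and 1.08) with intervals that left out 1. The share of barcodes with a RAD51C UMI, after each barcode of at least 5000 UMIs was thinned to 5000, was 18.9% in the control and 26.0%, 28.0% and 17.6% at the rising doses. Without thinning, over all barcodes, it was 49.9%, 45.7%, 47.0% and 37.6%. Thinning left out 2051, 8953, 5679 and 3980 barcodes, and no cell type that should lack RAD51C was present to give a background share.

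RAD54L, a DNA motor protein that acts in strand pairing, had ratios of 0.608 and 0.589. RAD52, a strand annealing protein, had the fewest UMIs of the 41, between 391 and 655 per library, and its ratios of 0.538 (0.477 to 0.606) and 0.520 (0.457 to 0.590) had wide intervals. Its exons overlap AC004803.1 on the same strand.

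All 5 helicase and Fanconi anaemia genes were lower at both low doses, beside 53.4% and 60.9% of all genes, with medians of -0.52 and -0.58. WRN, a helicase and exonuclease of the RecQ family, had 43.7 CPM in the control and 23.4, 21.5 and 46.7 CPM after 10 mGy, 100 mGy and 1 Gy. BLM, the RecQ helicase that dissolves recombination intermediates, had ratios of 0.698 and 0.669. WRN thus stood lower than BLM against the control, and its intervals of 0.519 to 0.553 and 0.476 to 0.510 did not reach those of BLM (0.675 to 0.721 and 0.646 to 0.692). FANCD2, which is ubiquitylated at crosslinks together with FANCI, had 40.2, 30.4, 31.1 and 43.9 CPM, and its ratio at 1 Gy was 1.09 (1.06 to 1.12). At 100 mGy the direction of FANCD2 turned under median ratio scaling. FANCI had ratios of 0.756, 0.750 and 1.00, and FANCA, a subunit of the core complex, had 0.664, 0.667 and 1.00. Under median ratio scaling only WRN and FANCA (log2 ratios of -0.60 and -0.29) were counted as lower at 10 mGy. At 100 mGy only WRN (-0.64) was.

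The checkpoint genes divided. CHEK1, the kinase downstream of ATR, had 44.4 CPM in the control and 44.9, 44.0 and 44.1 CPM after 10 mGy, 100 mGy and 1 Gy, and every ratio had an interval that included 1. CHEK2, the kinase downstream of ATM, had 7.65, 7.98, 7.21 and 8.005 CPM, again with intervals that included 1. Against the median gene, which was lower at both low doses, these flat levels lay at percentiles 72.9 and 75.3 at 10 mGy. Under median ratio scaling both genes were counted as higher at both low doses. Their log2 ratios were then 0.32 and 0.37 for CHEK1 and 0.36 and 0.30 for CHEK2 at 10 mGy and 100 mGy. Exons of CHEK1 overlap those of STT3A on the same strand.

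WEE1, the kinase that holds back mitotic entry, had 40.7 CPM in the control and 23.8, 24.1 and 41.4 CPM after 10 mGy, 100 mGy and 1 Gy. Its ratios were 0.585 (0.567 to 0.604) and 0.593 (0.573 to 0.613). TOPBP1, the activator of ATR, had ratios of 0.663 and 0.626, and PPM1D, the phosphatase that turns the signal off, had 0.674 and 0.692. These 3 genes were lower at both low doses, beside 53.4% and 60.9% of all genes, and the group medians were -0.57 and -0.53.

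**Figure D2:**
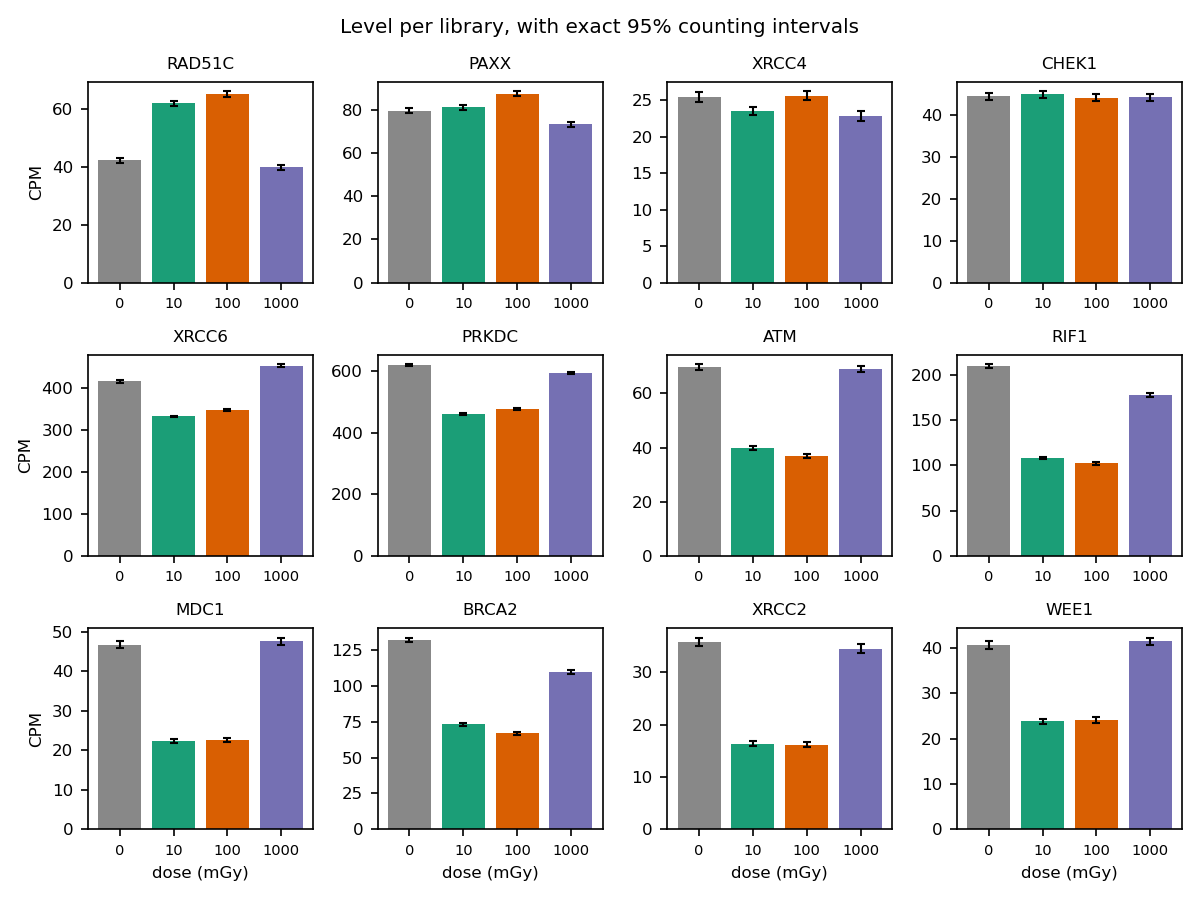
Level in CPM of 12 of the genes in each library (dose in mGy, 0 for the control), with exact 95% counting intervals as error bars. RAD51C stands higher at 10 and 100 mGy (61.9 and 65.1 CPM) than at 0 and 1000 mGy (42.2 and 39.8 CPM), CHEK1 is level, and ATM, RIF1, MDC1, BRCA2, XRCC2 and WEE1 are lower at the low doses.

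Ratios of 100 mGy to 10 mGy ran from 0.743 to 1.11 over the 41 genes. This span was narrower than that against the control, 0.456 to 1.46 at 10 mGy and 0.451 to 1.54 at 100 mGy. The interval of the ratio of 100 mGy to 10 mGy included 1 for 18 of the 41 genes, lay below 1 for 16 and above 1 for 7. XRCC5 had the largest step up, 1.11 (1.11 to 1.12), and PALB2 and RAD51D (0.761) had the largest steps down. At 1 Gy the interval against the control included 1 for 16 genes, lay below 1 for 18 and above 1 for 7. All of these differences but that of BRCA2 stayed inside the threshold. Intervals were not counted over all genes for either comparison, so these counts have no background to be set against. The lowest at 1 Gy after BRCA2 were LIG4, PALB2 (0.836) and RIF1, at percentiles 1.5, 1.5 and 2.1 of all genes.

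The ratios at the low doses went with exonic length. The exonic length of each gene is the summed length of its exons in GENCODE 29, with all its transcripts merged. It can exceed the length of any 1 transcript, and it was matched for all 41 genes and for 12808 of the 12879. Across the 41 genes Spearman's rho between exonic length and log2 ratio came to -0.34, -0.33 and 0.00 at the rising doses, and across all 12808 genes it was -0.42, -0.45 and 0.01. Genes of a library share its depth and composition, and they are not independent replicates. Of the 41 genes, 30 have 5000 exonic bases or more. Their median lay at -0.48 after 10 mGy and -0.52 after 100 mGy, beside -0.47 and -0.60 over all genes of that length. The 11 shorter genes had medians of -0.39 and -0.42, beside -0.10 and -0.18 over all shorter genes. By their medians long break response genes thus stood near other long genes and the short ones below other short genes. By counts, 26 and 24 of the 30 long genes were lower at 10 mGy and 100 mGy, beside 4421 and 4935 of 6293 long genes. Of the 11 shorter genes 7 and 6 were lower, beside 2410 and 2863 of 6515. At 10 mGy the share of lower long genes was thus above that of all long genes. ATM, with 23972 exonic bases, lay at the long end and PAXX, with 1367, at the short end, whereas XRCC2 (4853) and RAD51C (6068) are of middle length and lay far from the median of genes like them. The part of length in these ratios was not tested.

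**Figure D3:**
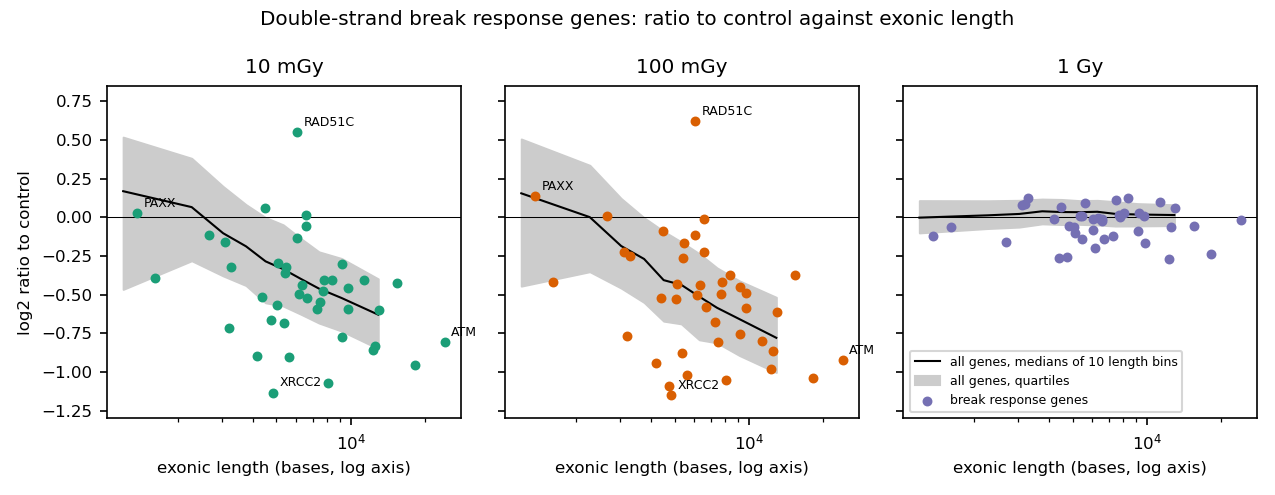
Log2 ratio to the control against exonic length (log axis) for the 41 genes (points) at 10 mGy, 100 mGy and 1 Gy. The black line joins the medians of all genes in bins of length that hold equal numbers of genes and the grey band spans their quartiles. At the low doses the line falls with length and RAD51C lies above the band and XRCC2 below it, while at 1 Gy the line stays near 0.

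Other genes of the same pathways, 54 that are not among the 41, were taken as a separate list, and 53 reached 1 CPM. At 10 mGy 28 of the 53 were lower and 6 higher, at 100 mGy 31 and 8, and at 1 Gy 2 and 1. Of all genes 53.4%, 60.9% and 1.42% were lower at the rising doses and 15.2%, 12.6% and 3.14% higher, so that the shares of the 53 at both low doses were near that background. The lowest at 10 mGy were POLQ (0.441), GEN1 (0.469) and BRIP1 (0.493), and the highest were RPA3 (1.89), RMI2 (1.54) and SHLD1 (1.53). The same 6 led at 100 mGy, with BRIP1 at 0.388, POLQ at 0.388 and GEN1 at 0.428, and RPA3 at 2.15, SHLD1 at 1.51 and RMI2 at 1.39. At 1 Gy SHLD3 (0.775), BRIP1 (0.832) and SMC5 (0.842) were lowest and RMI2 (1.22), CDC25C (1.16) and RAD9A (1.15) highest. Of 22 targets of p53, 5 were higher and 11 lower at 10 mGy, 3 and 14 at 100 mGy, and 0 and 1 at 1 Gy, and the shares lower at the low doses were also near those of all genes. CDKN1A, the cell cycle inhibitor that p53 induces, had 28.5, 31.6, 24.7 and 28.9 CPM from the control to 1 Gy, and MDM2, its negative regulator, had 61.3, 29.6, 29.96 and 56.7 CPM.

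The study used a spread of expression over cells that narrows with dose as a filter for its genes. It joined this filter to thresholds of fold change and p and to a ranking by closeness to a normal distribution. The cell number it gives per group is below the number of deposited barcodes. All deposited barcodes and the spread alone were used here, so its filter was not repeated. The dispersion, the standard deviation over the mean of UMIs scaled to 10000 per barcode, was lower at 100 mGy for 1 of the 41 genes (ATRIP), where 4.74% of all genes were. The median dispersion over the 41 genes was 201% in the control and 291%, 334% and 241% at the rising doses. Thinned to 5000 UMIs per barcode, 15 of the 41 genes were lower at 100 mGy, beside 29.4% of all genes. With the counting variance subtracted 19 were, beside 46.1%, and with unscaled UMIs 19 were, beside 33.4%. Without low-UMI barcodes it was 0 of the 41, beside 0.683%. Depth per barcode was lower at 100 mGy than at 10 mGy (median 12417 against 13757 UMIs).

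Homologous recombination is used in S and G2, so the genes were also set against cell cycle classes within each library. Barcodes with at least 5000 UMIs, low-UMI barcodes left out, were thinned to 5000 and scored by the UMIs of 26 G1/S and 50 G2/M marker genes, which include none of the 41. The top 25% of a library by G2/M markers were called G2/M-high, those in the top 25% by G1/S markers outside it G1/S-high, and those below the library median in both scores low. The classes are ranges of a score and not cell types, with 283 to 526 barcodes within 1 UMI of a G2/M cutoff and 1688 to 2479 within 1 UMI of a G1/S cutoff in a library. Each held 1507 to 3413 barcodes per library. The median UMI count was 17779 to 25335 in the G2/M-high class and 14363 to 20386 in the low class. UMIs were summed per library and class, and edgeR's quasi-likelihood test with Benjamini-Hochberg adjustment was run over 16251 genes with the library as a term. The 4 libraries are the replicates, and since each received another dose the test is of a class difference common to them.

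Break response genes that passed the test in the G1/S-high class were higher there, and their number moved with the scaling. Against the low class 21 of 41 were higher and 0 lower at an adjusted p under 0.05 (edgeR's quasi-likelihood test), where 9.61% of all genes were higher and 11.2% lower. At an unadjusted p under 0.05 also 0 were lower, and DESeq2 called 18 higher and 0 lower, beside 7.58% and 12.6% of the 12785 genes to which it gave an adjusted p. Scaled by library totals alone, 33 were higher and 0 lower, beside 19.5% and 3.93% of all genes. By role, 6 of 10 homologous recombination genes, 4 of 5 helicase and Fanconi anaemia genes, 3 of 4 resection genes, 3 of 6 mediators, 2 of 4 in the kinase group, 2 of 5 checkpoint genes and 1 of 7 end joining genes (XRCC5) rose. Leaving out 1 library at a time, 16 to 20 of the 41 were higher, beside 5.34% to 8.74% of all genes. Both calls in the kinase group were among those lost, ATR without the control or without 100 mGy and PRKDC without 10 mGy. MDC1 was lost without any 1 of the 4 libraries, WRN without 10 mGy or 100 mGy, CHEK1 and PALB2 without 10 mGy and RAD51D without 1 Gy.

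RBBP8 had the largest difference. In the low class it stood at 62.0, 48.5, 44.1 and 57.2 CPM from the control to 1 Gy, and in the G1/S-high class at 76.0, 65.4, 58.0 and 70.8 CPM. It was higher in 4 of 4 libraries, by 0.29 on the log2 scale (SE 0.028, adjusted p = 1.11e-08 in edgeR's quasi-likelihood test). BLM rose by 0.29 (SE 0.043, adjusted p = 1.82e-05) and BRCA1 by 0.27 (SE 0.030, adjusted p = 1.37e-07), each in 4 of 4 libraries. BRCA2 rose by 0.27 and FANCA by 0.26, with adjusted p of 1.11e-06 and 0.00013. The genes at the other end were not called, with log2 differences of -0.05 for PAXX, -0.04 for RAD51C, -0.02 for XRCC4 and LIG4, and 0.01 for RAD52. These small signs rest on the scaling, since by library totals alone PAXX, RAD51C, XRCC4 and LIG4 were 0.01 to 0.04 above 0, also not called, and in CPM the first 3 were higher in 3 of 4 libraries. In RAD51C the low class had 40.4, 62.1, 64.4 and 38.4 CPM and the G1/S-high class 42.5, 60.9, 65.4 and 40.9 CPM, so that the libraries differed and the classes hardly did.

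The promoters of the 3 genes with the largest rise and of the 2 with the smallest change between these classes are shown. They set genes called higher in the G1/S-high class beside genes without a call. RAD52 was measured with little precision (SE 0.11 on the log2 scale), so a rise as large as some called ones could have been missed. Each is the 250 bases before a transcription start, from RefSeq on GRCh38.p14, printed 5′ to 3′ on the strand of the gene. Where 2 starts are listed (RBBP8, BRCA1 and RAD52) the one at the lower genomic coordinate was used. On the minus strand (BRCA1 and RAD52) that is the more downstream start. An entry with the letters TTTCCCGC or TTTGGCGC would have been taken first, and none of these genes had such an entry. RBBP8 is at chr18:22933078-22933327 on the plus strand, BLM at chr15:90717096-90717345 on the plus strand, BRCA1 at chr17:43125365-43125614 on the minus strand, RAD52 at chr12:949695-949944 on the minus strand and PPM1D at chr17:60599943-60600192 on the plus strand. Capitals mark CCAAT, the box bound by the factor NF-Y, or its reverse complement ATTGG.
RBBP8: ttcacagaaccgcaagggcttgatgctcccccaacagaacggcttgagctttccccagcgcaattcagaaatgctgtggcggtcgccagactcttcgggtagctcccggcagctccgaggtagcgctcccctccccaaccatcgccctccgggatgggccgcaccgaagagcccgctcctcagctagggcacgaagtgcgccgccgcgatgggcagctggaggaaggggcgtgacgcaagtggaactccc
BLM: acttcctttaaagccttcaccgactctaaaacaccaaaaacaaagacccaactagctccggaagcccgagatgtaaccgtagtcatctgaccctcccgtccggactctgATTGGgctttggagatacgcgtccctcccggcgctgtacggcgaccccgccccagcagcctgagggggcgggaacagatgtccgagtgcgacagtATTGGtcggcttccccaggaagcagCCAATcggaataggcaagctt
BRCA1: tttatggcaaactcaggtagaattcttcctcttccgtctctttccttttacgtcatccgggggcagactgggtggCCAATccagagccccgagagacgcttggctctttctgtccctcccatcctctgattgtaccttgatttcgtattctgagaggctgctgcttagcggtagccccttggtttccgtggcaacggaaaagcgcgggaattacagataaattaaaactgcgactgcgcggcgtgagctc
RAD52: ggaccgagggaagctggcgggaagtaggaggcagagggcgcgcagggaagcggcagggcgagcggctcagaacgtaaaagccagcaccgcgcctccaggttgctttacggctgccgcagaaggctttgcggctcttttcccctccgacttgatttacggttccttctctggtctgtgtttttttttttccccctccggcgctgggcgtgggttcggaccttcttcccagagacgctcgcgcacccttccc
PPM1D: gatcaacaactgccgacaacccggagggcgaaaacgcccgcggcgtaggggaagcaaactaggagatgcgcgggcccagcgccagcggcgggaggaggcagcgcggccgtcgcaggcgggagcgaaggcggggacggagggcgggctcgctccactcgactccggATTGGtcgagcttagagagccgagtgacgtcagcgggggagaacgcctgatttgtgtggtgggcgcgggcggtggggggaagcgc
Counted back from the start, CCAAT lies at -141, -46 and -21 in BLM, at -175 in BRCA1 and at -85 in PPM1D, and RBBP8 and RAD52 hold none in this window. The E2F letters TTTCCCGC and TTTGGCGC and the CHR letters TTTGAA were also searched on both strands. Of the 41 genes 34 are in the promoter table, with 50 promoters. PRKDC, XRCC5, H2AFX, NBN, WRN, FANCI and WEE1 were not matched. CCAAT was in at least 1 promoter of 19 of the 34 genes (55.9%), and in 37.0% of the 27305 genes in the table. It was in 8 of the 16 matched genes that rose in the G1/S-high class and in 11 of the 18 others. Either of the exact E2F words was in 0 of the 50 promoters, beside 1.93% of all 35116 promoters, a share so small that 0 is near it. Other spellings of the E2F site were not searched, so sites of that type may be present. TTTGAA was in 3 of 50 (6%), beside 13.3%. A match is a description of letters and not of a bound site.

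In the G2/M-high class 21 of 41 genes were higher than in the low class and 8 lower, beside 22.7% and 22.2% of all genes, so that the share that fell was near that background. The genes that rose were spread over 7 roles, with 5 of 7 end joining genes, 4 of 6 mediators and 3 of 4 damage kinase genes, while 5 of the 10 homologous recombination genes fell and 1, BARD1, rose, a call that was lost without the control or without 100 mGy. Leaving out 1 library at a time gave 17 to 20 higher and 7 to 9 lower, beside 19.3% to 20.5% and 19.1% to 19.4% of all genes. The call of RNF8, a mediator, was lost without any 1 of the 4 libraries, that of XRCC6 without any 1 of the 3 irradiated libraries and that of ATRIP without 10 mGy or 1 Gy.

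H2AFX had the largest rise. It stood at 162, 126, 121 and 164 CPM in the low class and at 261, 199, 191 and 243 CPM in the G2/M-high class, from the control to 1 Gy. The log2 difference was 0.62 (SE 0.025, adjusted p = 2.89e-18 in edgeR's quasi-likelihood test), higher in 4 of 4 libraries. WEE1 rose by 0.40 (SE 0.038, adjusted p = 6.38e-10) and CHEK2 by 0.39 (SE 0.059, adjusted p = 3.08e-06), also in 4 of 4. XRCC4 rose by 0.24 and NBN by 0.23. Each of these genes was thus higher in the G2/M-high class whatever its level in the library.

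XRCC3 had the largest fall. Its low class stood at 12.6, 7.82, 6.62 and 12.1 CPM and its G2/M-high class at 7.71, 5.22, 4.63 and 9.01 CPM. The log2 difference was -0.58 (SE 0.060, adjusted p = 3.74e-09 in edgeR's quasi-likelihood test), lower in 4 of 4 libraries. RAD54L (-0.32), RAD51D (-0.30), FANCA (-0.22) and CHEK1 (-0.18) also fell. CHEK1, level across doses, thus moved with the cell cycle classes, at 44.8, 44.3, 43.5 and 44.7 CPM in the low class, 50.7, 51.4, 50.5 and 48.9 CPM in the G1/S-high class and 39.5, 40.3, 39.7 and 39.9 CPM in the G2/M-high class.

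Set directly against the G1/S-high class, the G2/M-high class had 13 genes higher and 16 lower, beside 26.2% and 23.5% of all genes. Scaled by library totals alone, 5 were higher and 18 lower, beside 19.1% and 27.5%. The number higher was 8 without the control, 8 without 10 mGy, 10 without 100 mGy and 7 without 1 Gy, beside 22.4%, 24.1%, 24.7% and 22.8% of all genes, and the number lower stayed at 16 or 17, beside 20.3% to 20.8%. The number higher was thus near or below that background. Of the 10 homologous recombination genes 8 fell. The largest falls were in XRCC3 (-0.71), FANCA (-0.48), RAD51D (-0.46), XRCC2 (-0.42) and RAD54L (-0.41), each lower in 4 of 4 libraries, with adjusted p from 1.38e-11 to 1.39e-08 in edgeR's quasi-likelihood test. The largest rises were in H2AFX (0.55), WEE1 (0.36), XRCC4 (0.27), CHEK2 (0.23) and LIG4 (0.23), each higher in 4 of 4 libraries. RAD51C was called higher by 0.07 (adjusted p = 0.0327), a call that was lost without any 1 of the 4 libraries.

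**Figure D4:**
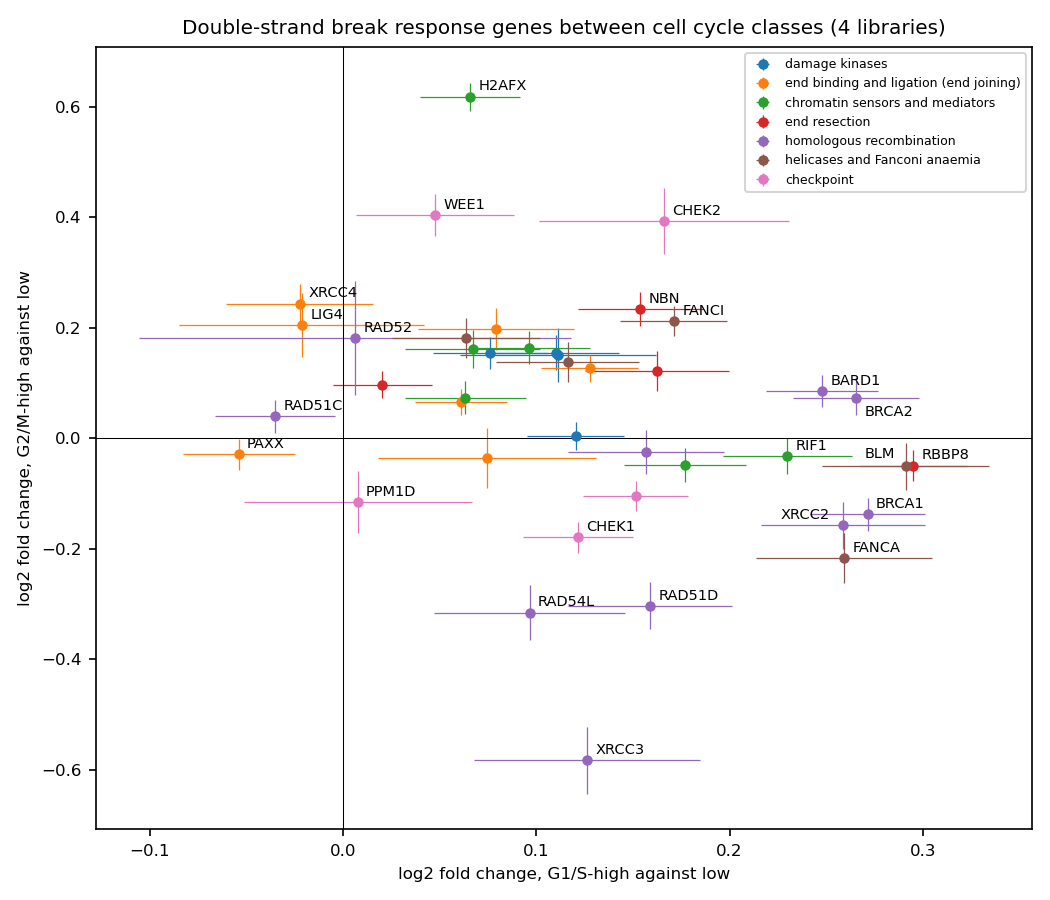
Log2 fold change of each of the 41 genes in the G1/S-high class (x axis) and in the G2/M-high class (y axis), each against the low class, which the axes share, over 4 libraries. Bars are standard errors derived from the log2 fold change and the F statistic of edgeR's test, and colours mark roles. RBBP8, BLM, BRCA1 and BRCA2 lie to the right, H2AFX, WEE1 and CHEK2 at the top and XRCC3 at the bottom.

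The dose differences were seen inside each class. Against the control, 34, 34 and 3 of 41 genes were lower in the low class at the rising doses, beside 54.9%, 63.6% and 5.04% of all genes. In the G1/S-high class 31, 30 and 0 were, beside 52.1%, 57.3% and 3.55%. In the G2/M-high class 30, 31 and 2 were, beside 51.7%, 59.3% and 2.79%. The RAD51C ratio at 10 mGy was 1.54 in the low class, 1.44 in the G1/S-high class and 1.47 in the G2/M-high class. At 100 mGy it was 1.59, 1.54 and 1.55. RAD51C thus stood above the control at the low doses in all 3 classes.

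**Figure D5:**
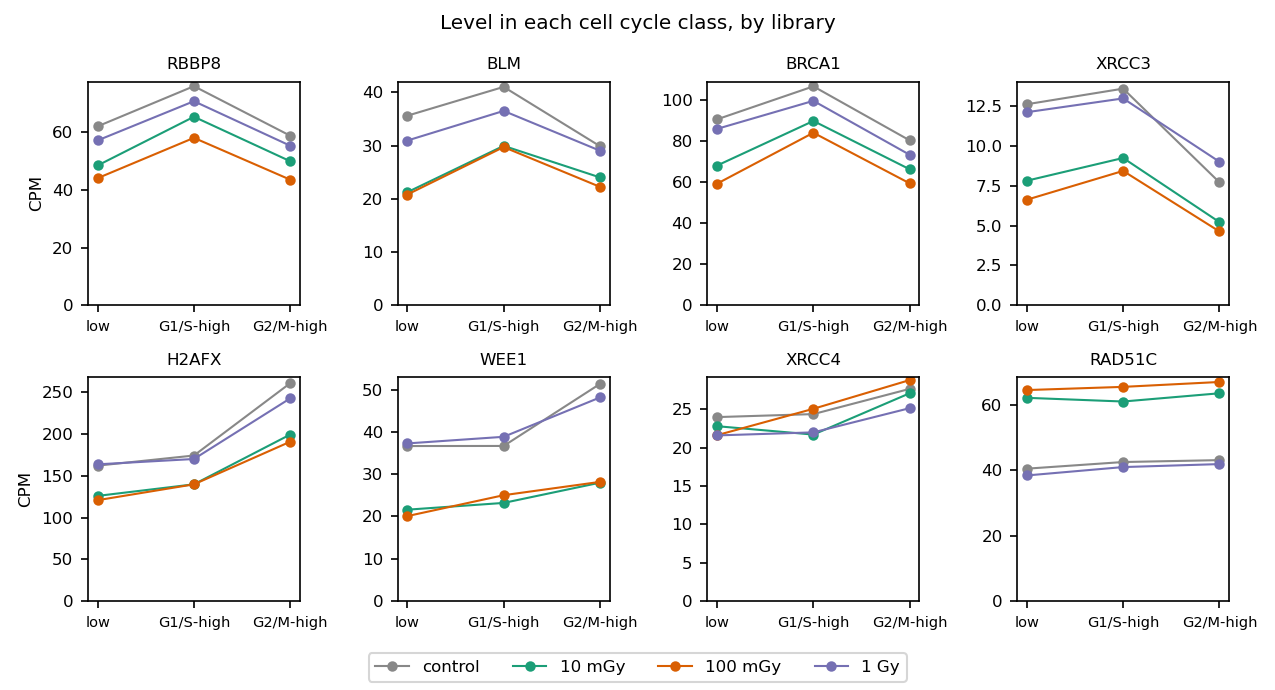
Level in CPM of 8 of the genes in the low, G1/S-high and G2/M-high classes, 1 line per library. RBBP8, BLM and BRCA1 peak in the G1/S-high class, H2AFX and WEE1 are highest in the G2/M-high class, XRCC3 is lowest there, and the RAD51C lines are flat with 10 mGy and 100 mGy above the control and 1 Gy.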

How the data were processed

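The authors deposited raw UMI counts per gene and barcode for 4 libraries, made with the Chromium 3′ kit. The file headers name Cell Ranger 7.0.1, the submitters' processing notes add STAR and GRCh37, and whether intronic reads were counted is not given in the sources used here. Deposited count files were used without change. Library and condition were matched by the sample labels. The 41 genes and the other lists were chosen with earlier results of these data known.

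Levels were summed over all deposited barcodes per 1000000 UMIs, with exact Poisson intervals, and ratios had exact conditional 95% intervals. With 211752280 to 285806026 UMIs per library counting error was small, and precision is limited by having 1 library per dose. Classes were compared by edgeR 4.0.16 (quasi-likelihood, TMM scaling, library and class as terms), with DESeq2 1.42.0 as an alternative. The standard errors (SE) printed beside edgeR's values are the size of the log2 fold change over the square root of the F statistic. On simulated counts for the G2/M-high class against the low class over 15975 genes, 40 of 40 genes changed by a fold of 2 were called, 37 of 40 at 1.5, 27 of 40 at 1.25, 26 of 40 at 0.8 and 32 of 40 at 0.5, with 11 false calls. The simulated libraries shared 1 mean profile and all genes 1 dispersion, so library differences and gene-wise spread were left out. Smaller folds were not simulated, and the largest called rise in the G1/S-high class, that of RBBP8, was 1.23-fold. The calls of this size were thus not covered. Doublets were kept, and no doublet caller was run.

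All 41 genes are accounted for. Values in every library were given for the 4 highest and 4 lowest ratios at each dose and for members of each role, and the 5 largest differences in each direction were named for each class comparison. Of the other pathway genes the 3 at each end were named. Exonic lengths and exon overlaps came from GENCODE 29 by gene identifier, which is on another build than the processing notes name, and no coordinates but those of the RefSeq promoters were used. By this annotation 4 of the 41 genes overlap another gene's exons on the same strand and 16 on the other strand. The tools were R 4.3.3 and Python 3.11.15 with scipy 1.17.1, pandas 2.3.3 and numpy 2.4.6.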

Additional observations from a re-analysis of the deposited data

How the results depend on the processing

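Median ratio scaling, which centres the median gene, gave 4 genes higher and 16 lower at 10 mGy (median log2 ratio -0.17), 6 and 15 at 100 mGy (-0.12) and 0 and 4 at 1 Gy, beside 30.2% and 28.4%, 29.9% and 31.2%, and 1.77% and 2.34% of all genes. By its construction it turned the sign of 5 genes at 10 mGy, 10 at 100 mGy and 7 at 1 Gy. Of those counted as lower, these were RBBP8 at 10 mGy (0.0051) and PRKDC (0.0109) and FANCD2 (0.0127) at 100 mGy, and of the others CHEK1 at 100 mGy moved farthest above 0 (0.37). Without ribosomal protein and mitochondrial genes in the total the median at 100 mGy was -0.38. A threshold of 1.5-fold left 0 higher and 15 lower at 10 mGy (5.23% and 27% of all genes), 1 and 16 at 100 mGy (4.57% and 36%) and 0 and 0 at 1 Gy (0.0155% and 0.0233%). At 1 Gy 2 genes were lower without low-UMI barcodes (1.39% of all genes) and 0 after thinning to 5000 UMIs (2.96%). Genes with a lower dispersion at 100 mGy numbered 0 without low-UMI barcodes, 15 after thinning, 19 as excess dispersion and 19 on unscaled UMIs, and the cause was not tested. The RAD51C log2 ratio ranged over the 7 settings from 0.54 to 0.85 at 10 mGy and from 0.62 to 1.01 at 100 mGy.

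In the class comparisons, dropping the library term left 0 genes higher in G1/S-high, 1 higher and 1 lower in G2/M-high against low, and 1 higher and 5 lower in G2/M-high against G1/S-high, since the dose libraries then enter the spread. Of all genes 0.0246% were then higher in the first, 1.63% higher and 1.19% lower in the next, and 2.01% and 2.35% in the last. Scaling by library totals alone gave 33 higher in G1/S-high (19.5% of all genes) and 5 higher in G2/M-high against G1/S-high (19.1%), and cuts at the top 10% gave 8 in the latter (26.5%), and the cause was not tested. Leaving out 1 library at a time, genes higher ranged from 16 to 20 in G1/S-high against low, from 17 to 20 in G2/M-high against low and from 7 to 10 in G2/M-high against G1/S-high, and genes lower from 7 to 9 and from 16 to 17 in the last comparisons. Calls were lost in 7, 6 and 8 genes in turn, among them MDC1, ATR and WRN in the first, RNF8, XRCC6 and BARD1 in the next and RAD51C, MDC1 and NBN in the last. An alternative chosen after seeing the data, leaving out barcodes over 3 times the median UMI count, gave 23, 20 and 12 genes higher, beside 9.07%, 23.1% and 26.8% of all genes. No paired analysis was possible because, between doses, each dose has 1 library and the labels give no replicate numbers. The class comparisons pair the classes of a library through the library term.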
